A study of Homo sapiens with 2 samples.

Results

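The genes described here are 40 components of the human DNA replication machinery, chosen by name from gene families with known roles in origin licensing, the replicative helicase, the DNA polymerases, the sliding clamp and its loader, and nucleotide supply. All 40 had a row among the 62700 genes of the deposited count table. The rule for choosing them used gene function and no measured value, but earlier results of these data were known when they were chosen. RNA came from K562, a human leukemia cell line with erythroid features, in 2 libraries, 1 with a guide against SMC1A, which encodes a core subunit of the cohesin ring, and 1 with a control guide. Cells of both libraries carried the genotype label E50_dCas9-KRAB, which the labels do not explain further, and their titles also give WT. dCas9-KRAB is a Cas9 without nuclease activity joined to a repressor domain, so that a guide lowers transcription at the promoter it names. A lentivirus brought in each guide together with a blue fluorescent protein, puromycin at 1 µg/ml was applied between day 2 and day 6, and the brightest blue cells were collected by sorting. The labels do not say how many guides were used per target or whether the cells were 1 clone. The count table also lists the fluorescent reporters d2EGFP and dsRed-Express2, which the labels do not describe. Each guide had 1 library, so no test across samples was possible, no p-value is given, and every difference is between these libraries.

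DNA replication is prepared in G1 phase, when the origin recognition complex, CDC6 and CDT1 load the MCM2-7 ring onto DNA. In S phase CDC45 and the GINS complex join the ring to form the CMG helicase, and primase, the replicative polymerases, the PCNA clamp and the RFC clamp loader follow it. Many of these genes are transcribed in waves driven by E2F factors around the entry into S phase. Cohesin, the complex that SMC1A belongs to, holds sister chromatids together from S phase on and also forms chromatin loops.

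The SMC1A library held 16864207 counts and the control library 18349209. SMC1A itself had 288 counts in the SMC1A library and 8077 in the control library, a log2 ratio of -4.81. All 10 erythroid markers of K562 reached 100 counts in the 2 libraries together, and their summed level was 13397 CPM (counts scaled to a common library size) in the SMC1A library and 14561 CPM in the control library. Within that list HBE1, an embryonic globin gene, took most of the sum, with 10348 CPM in the SMC1A library and 6755 CPM in the control library. The globin genes HBG2, HBZ and HBG1 and the transferrin receptor gene TFRC were each more than 2-fold lower, at log2 ratios of -1.68, -1.56, -1.50 and -1.41, larger differences than that of any of the 40 replication genes. Of markers of other cells, 1 of 5 lymphoid, 1 of 4 monocyte, 4 of 5 epithelial and 3 of 5 fibroblast genes reached 100 counts. The summed level of the fibroblast list was 24.7 CPM in the SMC1A library and 7.87 CPM in the control library, with LUM at 0 in both. Its genes did not share a direction. COL1A1 had 233 and 64 counts, COL3A1 154 and 2 and DCN 6 and 2 in the SMC1A and control libraries, while COL1A2 had 42 and 70. The epithelial list stood at 1192 and 1199 CPM, the lymphoid list at 20.1 and 16.1 CPM, and the monocyte list at 25.0 and 18.5 CPM in the SMC1A and control libraries, with the B cell gene MS4A1 at 0 in both. The part of these in the results below was not tested.

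DNA replication genes mostly stood slightly lower in the SMC1A library, by differing amounts. Of the 40 genes, 34 had a log2 ratio (SMC1A guide over control guide) below 0, against 54.3% of the 11319 genes tested, which are those whose 2 libraries together gave 100 counts or more. All 40 replication genes passed that filter, with 724 to 21778 counts. Their median log2 ratio was -0.30, with quartiles at -0.39 and -0.16, and that of all tested genes was -0.05. The exact 95% interval of a ratio, which covers counting error only, lay wholly below 0 for 33 of the 40, against 38.7% of all tested genes. It lay wholly above 0 for 0 of the 40, against 29.4% of all tested genes, and it held 0 for the other 7. These counts depend on the scaling, and the share of all tested genes wholly below 0 rises with level, as given below. With library totals alone 26 of the 40 lay wholly below 0 and 5 wholly above, and with the trend by mean level removed by lowess 26 and 6. The differences were small. At least 1.5-fold lower was 1 of the 40 (9.06% of all tested genes), and at least 1.5-fold higher were 0 (12.1%). No replication gene passed 2-fold in either direction, where 2.31% of tested genes were lower and 5.12% higher. Together the 40 genes took 0.561% of all counts in the SMC1A library (exact 95% interval 0.558 to 0.565) and 0.637% in the control library (0.634 to 0.641). In bulk RNA, fewer cells in S phase and less RNA per cell cannot be told apart.

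**Figure D1:**
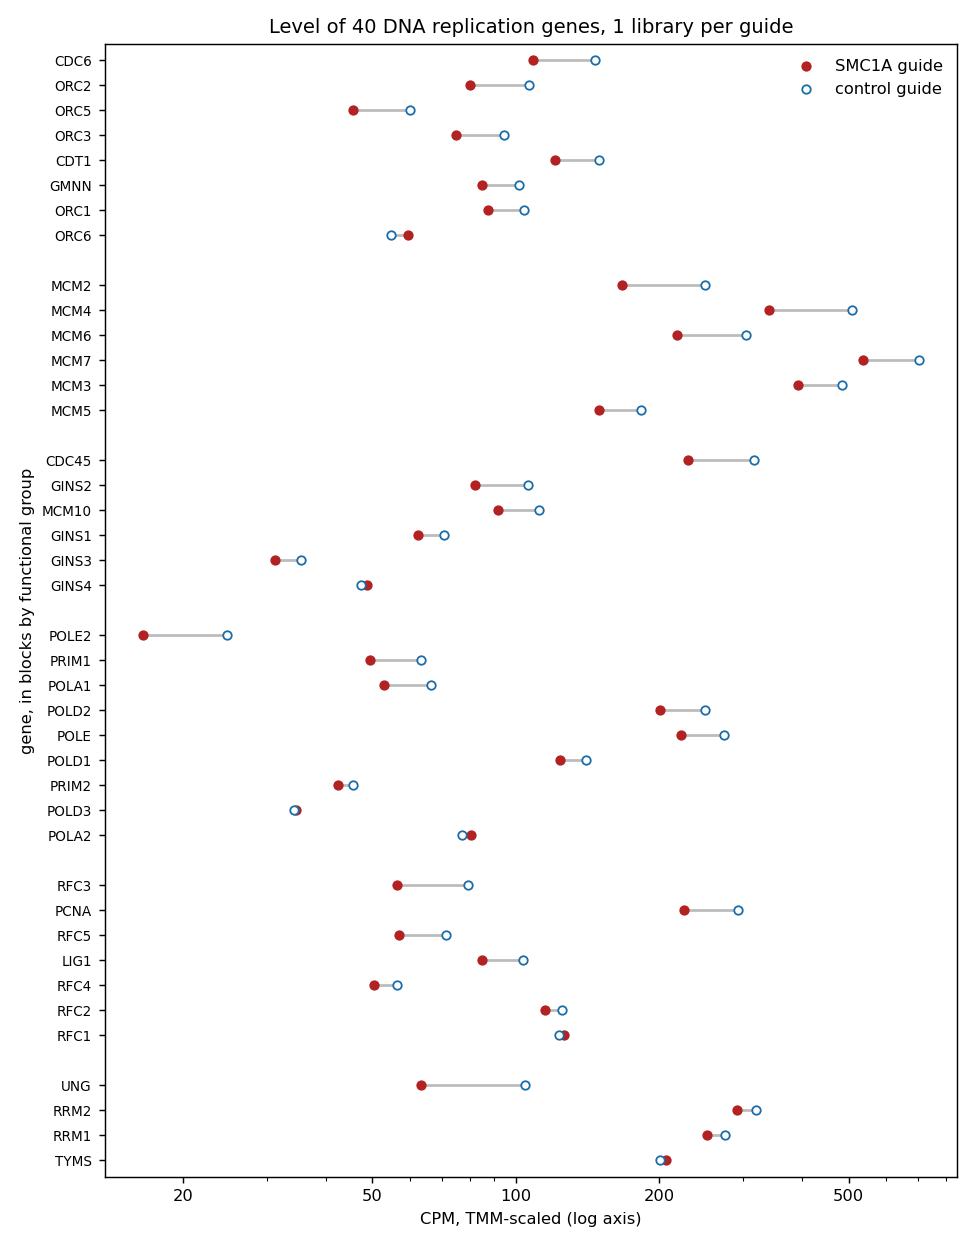
Level of each of the 40 replication genes in CPM on a log axis, with filled points for the SMC1A guide and open points for the control guide, 1 library each, in blocks by functional group. In 34 of the 40 genes the filled point lies to the left of the open one, and the exceptions differ little.

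Other genes of similar level also tended to have ratios below 0. Log2 ratios of all tested genes were lower at higher expression. In the top quintile of tested genes by mean level, the median log2 ratio was -0.19, and the 19 replication genes in it had a median of -0.31. In the next quintile the median was -0.10 over all genes and -0.33 over 16 replication genes. In the middle quintile it was -0.04 over all genes and -0.05 over 4 replication genes, POLD3, GINS3, PRIM2 and GINS4. POLE2 alone lay in the quintile below, and the lowest quintile held 0. Intervals wholly below 0 were found for 64.8% of all genes in the top quintile and for 17 of its 19 replication genes. In the next quintile they were found for 47.6% of all genes and 14 of 16 replication genes. In the middle quintile they were found for 37.1% of all genes and 1 of 4 replication genes. When the trend of the ratio with mean level was removed by lowess, the median of the 40 genes was -0.14 and that of all tested genes -0.0038, and 31 of the 40 were below 0. Then 26 of the 40 had an interval wholly below 0, against 33.1% of all tested genes.

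**Figure D2:**
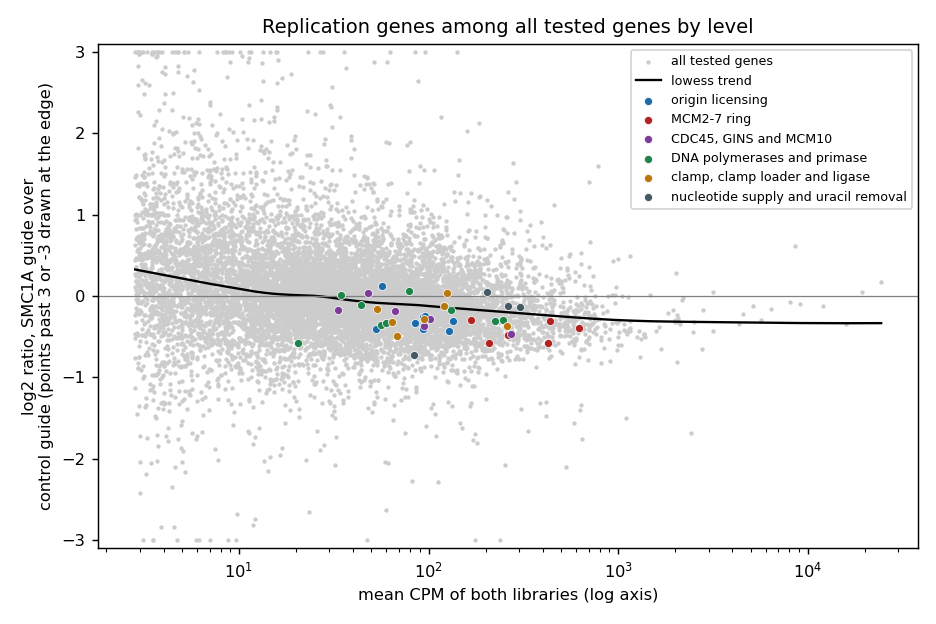
Log2 ratio (SMC1A guide over control guide) against the mean CPM of both libraries on a log axis, with all 11319 tested genes in grey, the lowess trend as a line and the 40 replication genes coloured by functional group. The trend declines with level, and 31 of the 40 coloured points lie below it.

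Promoters were compared because many replication genes answer to E2F factors. RefSeq promoter windows (GRCh38.p14, 250 bases before to 50 after a start) were found for 36 of the 40 genes, 46 windows in all. The E2F-type words TTTCCCGC, TTTCGCGC, TTTGCCGC and TTTGGCGC were searched on both strands. At least 1 of them occurred in 20 of the 46 windows (43.5%), against 3.31% of 35116 windows of all genes and 5.27% of 12761 windows of tested genes. In the ring, the 6 windows belong to MCM2, MCM3, MCM6 and MCM7, and 4 of them held one. The word CCAAT, also on both strands, occurred in 63.0% of the windows of the 40 genes, against 35.3% of windows of tested genes. The CHR words TTTGAA and TTCGAA, found at genes of later cell cycle phases and searched on both strands, occurred in 6.52%, against 11.8% of windows of tested genes. The 20 genes with an E2F-type word had a median log2 ratio of -0.33, from -0.73 to 0.07, and the 16 genes with a window but no such word -0.21, from -0.47 to 0.12. The split by CCAAT gave a similar gap, with medians of -0.32 for 23 genes with the word and -0.18 for 13 without. That by the CHR words gave -0.48 for 3 genes with a word and -0.31 for 33 without. The ranges overlap, and a match of letters is a description and not a bound site.

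The 250 bases before the start are shown for 4 genes chosen from the low and the high end of the ratios, 5′ to 3′ on the gene's strand, with E2F-type words in capitals. MCM6 (log2 ratio -0.48; chr2:135876444-135876693, minus strand) and RFC3 (-0.49; chr13:33817899-33818148, plus strand) were among the lower genes. TYMS (0.04; chr18:657403-657652, plus strand) also carries such a word, with an interval of the ratio that held 0. ORC6 (0.12; chr16:46689409-46689658, plus strand) had the highest ratio and no such word. In MCM6 the 4 matches lie in 2 places, where TTTGGCGC and GCGCGAAA, the reverse complement of TTTCGCGC, overlap.
MCM6: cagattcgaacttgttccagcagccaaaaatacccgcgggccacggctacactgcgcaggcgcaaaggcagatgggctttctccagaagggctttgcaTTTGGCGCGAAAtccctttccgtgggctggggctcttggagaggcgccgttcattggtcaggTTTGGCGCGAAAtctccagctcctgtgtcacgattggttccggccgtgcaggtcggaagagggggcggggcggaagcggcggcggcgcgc
RFC3: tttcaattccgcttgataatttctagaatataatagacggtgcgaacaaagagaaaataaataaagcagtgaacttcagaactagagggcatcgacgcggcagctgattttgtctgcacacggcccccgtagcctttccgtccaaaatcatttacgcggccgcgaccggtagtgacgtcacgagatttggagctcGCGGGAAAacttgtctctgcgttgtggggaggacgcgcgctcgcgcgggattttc
TYMS: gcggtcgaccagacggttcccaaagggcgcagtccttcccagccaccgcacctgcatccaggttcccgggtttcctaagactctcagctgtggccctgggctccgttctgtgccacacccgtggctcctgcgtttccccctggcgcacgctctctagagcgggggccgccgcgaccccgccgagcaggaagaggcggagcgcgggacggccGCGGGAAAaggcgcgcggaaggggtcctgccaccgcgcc
ORC6: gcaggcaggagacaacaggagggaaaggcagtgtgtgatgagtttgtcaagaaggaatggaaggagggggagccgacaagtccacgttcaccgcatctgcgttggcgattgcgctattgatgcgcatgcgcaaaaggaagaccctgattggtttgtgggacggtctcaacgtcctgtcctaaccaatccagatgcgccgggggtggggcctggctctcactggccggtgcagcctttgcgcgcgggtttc

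Origin licensing genes had a median log2 ratio of -0.32, with 7 of 8 intervals wholly below 0, against 38.7% for all tested genes. CDC6, the ATPase that works with the origin recognition complex to load MCM rings, had 1915 counts (109 CPM) in the SMC1A library and 2573 (147 CPM) in the control library, a log2 ratio of -0.43 (-0.52 to -0.35). CDT1, its partner in loading, had 121 and 150 CPM in the SMC1A and control libraries (log2 ratio -0.31, interval -0.39 to -0.23). GMNN, which encodes geminin, the inhibitor of CDT1, had 85.0 and 102 CPM (-0.26, -0.36 to -0.16). The balance of inhibitor to target differed by less than the counting error. There were 0.704 GMNN counts per CDT1 count in the SMC1A library and 0.679 in the control library, a change of 1.04-fold (0.947 to 1.13) that needs no scaling between libraries.

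The subunits of the origin recognition complex ranged from lower to near level. ORC2 stood at 80.1 CPM in the SMC1A library and 106 CPM in the control library (log2 ratio -0.41), ORC5 at 45.5 and 60.1 CPM (-0.40), ORC3 at 75.0 and 94.4 CPM (-0.33) and ORC1, the subunit whose protein level changes with the cell cycle in human cells, at 87.5 and 104 CPM (-0.25). ORC6, the smallest subunit, was the only gene of the group above 0, at 59.3 CPM (1045 counts) in the SMC1A library and 54.6 CPM (958 counts) in the control library. Its log2 ratio was 0.12 (-0.01 to 0.25), the highest of the 40 genes, and its interval overlapped that of none of the other 7 licensing genes. Those 7 were the only pairs, of 28 in the group, without overlap. Of pairs of all tested genes, 57.7% did not overlap. ORC4, a subunit outside the 40, lay at -0.05 (-0.19 to 0.10). ORC1 counts per ORC2 count were 1.09 in the SMC1A library and 0.978 in the control library, a change of 1.12-fold (1.01 to 1.23).

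The MCM2-7 ring, the motor of the replicative helicase, was the lowest of the 6 groups by its median log2 ratio (-0.44), and all 6 intervals lay wholly below 0. In the top quintile by level, where all ring genes lie, 64.8% of all genes had such an interval. With the trend by level removed the ring median was -0.21 and that of licensing genes -0.19, so the ring hardly stood apart from licensing genes under that setting. MCM2 had 2952 counts (167 CPM) in the SMC1A library and 4376 (249 CPM) in the control library, a log2 ratio of -0.58 (-0.64 to -0.51). MCM4 had 6015 counts (341 CPM) and 8916 counts (508 CPM) in the SMC1A and control libraries, also -0.58 (-0.62 to -0.53). Both stood just inside the 1.5-fold limit, at 67.1% of the control level. MCM6 had 218 and 305 CPM (log2 ratio -0.48, interval -0.54 to -0.42) and MCM7 536 and 702 CPM (-0.39, -0.43 to -0.35). MCM3 had 392 and 485 CPM (-0.31, -0.35 to -0.26) and MCM5 150 and 183 CPM (-0.29, -0.37 to -0.22), in the SMC1A and control libraries. Of the 15 pairs of ring genes, 8 had intervals of the ratio that did not overlap, against 57.7% of pairs of all tested genes and 77.4% of pairs in the top quintile by level, where all ring genes lie. Over the 6 groups, 48 of 121 pairs within a group (39.7%) did not overlap. MCM2 counts per MCM7 count were 0.312 in the SMC1A library and 0.355 in the control library, 0.878-fold (0.832 to 0.927).

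Levels per kilobase of a GENCODE transcript put the ring genes in the same order in both libraries. MCM7 was highest, at 181 CPM per kilobase in the SMC1A library and 237 in the control library. MCM3 (122 and 151), MCM4 (81.5 and 121), MCM6 (58.4 and 81.7) and MCM2 (46.2 and 68.9) followed, and MCM5 was lowest (42.3 and 51.9). MCM8 and MCM9, relatives that form a separate complex in DNA repair, lay apart. MCM8 was at -0.10 (-0.19 to -0.02). MCM9 was at 15.5 CPM (273 counts) in the SMC1A library and 27.6 CPM (485 counts) in the control library, with a log2 ratio of -0.83 (-1.06 to -0.62), below every one of the 40 genes. Exons of MCM9 overlap 137 bases of ASF1A on the opposite strand, so their reads may be divided with error. MCMDC2 had 0 counts in both. MCMBP, whose product binds MCM subunits other than MCM2, was at 56.1 and 81.6 CPM in the SMC1A and control libraries (log2 ratio -0.54, interval -0.66 to -0.42).

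The factors that join the ring to make the CMG helicase had a median log2 ratio of -0.23. Of their intervals 5 of 6 lay wholly below 0, against 38.7% for all tested genes. CDC45 had 4048 counts (230 CPM) in the SMC1A library and 5566 (317 CPM) in the control library, a log2 ratio of -0.47 (-0.53 to -0.41) that resembled the ring genes. The 4 GINS genes, which encode a complex with 1 copy of each subunit, spread from lower to level. GINS2 was at 82.2 and 106 CPM in the SMC1A and control libraries (-0.37, -0.47 to -0.27), GINS1 at 62.2 and 70.6 CPM (-0.18, -0.30 to -0.06), GINS3 at 31.2 and 35.3 CPM (-0.18, -0.35 to -0.01) and GINS4 at 48.6 and 47.2 CPM (0.04, -0.10 to 0.18). MCM10, a helicase activator that is not a ring subunit despite its name, was at 91.9 and 112 CPM (-0.28, -0.38 to -0.19).

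Polymerase and primase genes had a median log2 ratio of -0.30, with 6 of 9 intervals wholly below 0, against 38.7% for all tested genes. POLE2, the second subunit of leading-strand polymerase epsilon, had the lowest CPM of the 40 genes, without correction for transcript length, and the lowest ratio of its group. It had 291 counts (16.5 CPM) in the SMC1A library and 433 (24.7 CPM) in the control library, and its log2 ratio of -0.58 had a wide interval (-0.80 to -0.36). POLE, the catalytic subunit, was at 223 and 274 CPM in the SMC1A and control libraries (-0.30, -0.36 to -0.24). The histone-fold subunits POLE3 and POLE4, outside the 40, were at -0.21 and -0.11.

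In the polymerase alpha-primase complex, which starts each new strand, the catalytic subunit and its partner gene differed. POLA1 was at 53.0 CPM in the SMC1A library and 66.4 CPM in the control library (log2 ratio -0.33, interval -0.45 to -0.20). POLA2 was at 80.6 and 77.0 CPM (0.07, -0.04 to 0.17), and it shares 2012 exonic bases on the same strand with AP000944.2, which had 8 and 0 counts in the SMC1A and control libraries. Of the primase genes, the catalytic PRIM1 was at 49.5 and 63.2 CPM (-0.35, -0.48 to -0.22) and the large subunit PRIM2 was at 42.3 and 45.5 CPM (-0.11, -0.25 to 0.04), although their intervals overlap. Exons of PRIM1 share 362 bases on the same strand with AC117378.1, which had 14 and 4 counts in the SMC1A and control libraries. They also share 33 bases on the same strand with the abundant gene NACA, which had 8913 and 11624 counts. The count of PRIM1 therefore depends on how reads were divided.

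Polymerase delta, the main lagging-strand enzyme, had subunit genes on both sides of 0. POLD2 was at 201 CPM in the SMC1A library and 249 CPM in the control library (log2 ratio -0.31, interval -0.38 to -0.25), the catalytic POLD1 at 124 and 140 CPM (-0.18, -0.26 to -0.09) and POLD3 at 34.5 and 34.1 CPM (0.02, -0.15 to 0.18). POLD3 shares 123 exonic bases on the same strand with AP001372.2, which had 95 and 62 counts in the SMC1A and control libraries. The small subunit gene POLD4, which is outside the 40, had 476 counts (27.0 CPM) in the SMC1A library and 171 (9.75 CPM) in the control library. Its log2 ratio of 1.46 (1.21 to 1.73) was the highest among all listed replication genes. POLD4 shares 650 exonic bases on the same strand with a second annotated gene, AP003419.1, which had 111 and 55 counts, so the split between them is uncertain, although both counts were higher in the SMC1A library.

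**Figure D3:**
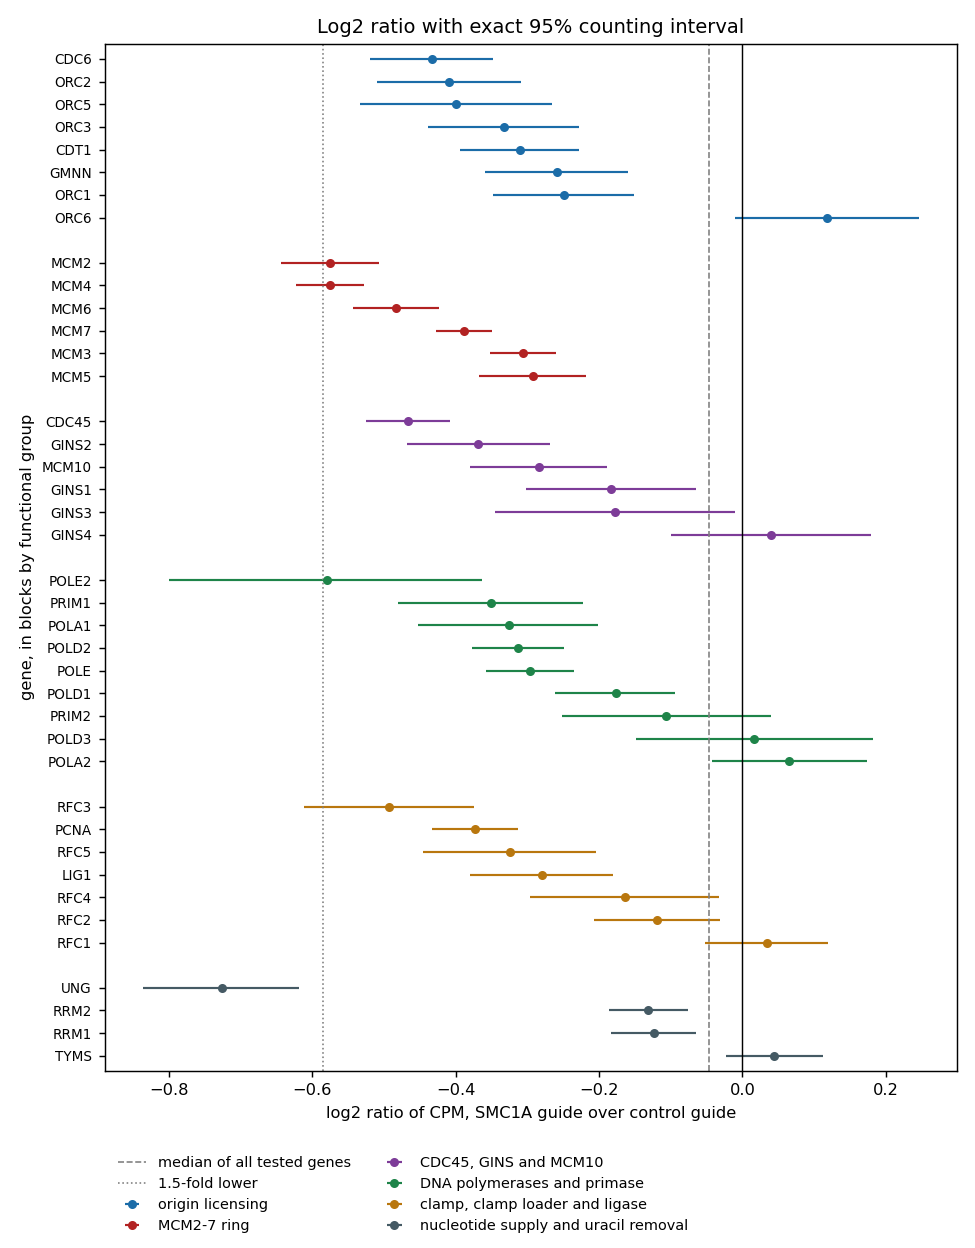
Log2 ratio of CPM (SMC1A guide over control guide) of each replication gene with its exact 95% counting interval, coloured by functional group. The dashed line is the median of all tested genes (-0.05) and the dotted line the 1.5-fold limit. UNG alone lies past the dotted line, and 7 intervals reach across 0.

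The clamp, its loader and the ligase that seals nicks had a median log2 ratio of -0.28. Of their intervals 6 of 7 lay wholly below 0, against 38.7% for all tested genes. PCNA, the sliding clamp, had 3986 counts (226 CPM) in the SMC1A library and 5136 (293 CPM) in the control library (-0.37, -0.43 to -0.31). LIG1 was at 85.1 and 103 CPM (-0.28, -0.38 to -0.18). Within the 5-subunit loader, RFC3 was at 56.4 and 79.3 CPM in the SMC1A and control libraries (-0.49, -0.61 to -0.37), RFC5 at 56.9 and 71.3 CPM (-0.32, -0.45 to -0.20), RFC4 at 50.3 and 56.4 CPM (-0.16, -0.30 to -0.03) and RFC2 at 115 and 125 CPM (-0.12, -0.21 to -0.03). RFC1, the large subunit, was at 126 and 123 CPM (0.03, -0.05 to 0.12), and its interval did not overlap those of RFC3 and RFC5. Of 21 pairs in the whole group 8 did not overlap, against 57.7% of pairs of all tested genes. RFC5 overlaps 186 exonic bases of WSB2 on the opposite strand.

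Genes of nucleotide supply had the group median nearest to 0, a log2 ratio of -0.13, and its sign depended on the scaling. The median was 0.0016 with library totals alone and 0.076 with the trend by level removed. RRM1 was above 0 under both settings and RRM2 with the trend removed. RRM1 and RRM2 encode the subunits of ribonucleotide reductase, which makes deoxynucleotides. RRM2 had 5135 counts (291 CPM) in the SMC1A library and 5595 (319 CPM) in the control library (-0.13, -0.19 to -0.08), and RRM1 had 253 and 275 CPM (-0.12, -0.18 to -0.07). RRM2 counts per RRM1 count were 1.15 in the SMC1A library and 1.16 in the control library, a change of 0.995-fold (0.941 to 1.05). TYMS, the enzyme that makes thymidylate, was at 207 and 200 CPM in the SMC1A and control libraries (0.04, -0.02 to 0.11). TYMS overlaps 967 exonic bases of ENOSF1 on the opposite strand, so the count of TYMS may depend on how reads were divided. RRM2 shares 1077 exonic bases on the same strand with AC007240.1, a gene for which no counts were given. UNG, a glycosylase that removes uracil from DNA and so acts behind the fork and not in supply, had 1113 counts (63.1 CPM) in the SMC1A library and 1833 (104 CPM) in the control library. Its log2 ratio of -0.73 (-0.84 to -0.62) was the lowest of the 40 genes, at 60.4% of the control level, and 5.42% of tested genes had a ratio at or below it. With the trend by level removed it stood at -0.62.

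Other genes of DNA replication, from 8 lists that hold no gene of the 40, had a median nearer to 0. Of 86 genes 85 were tested. Their median log2 ratio was -0.18, with 50 intervals wholly below 0 and 17 wholly above, and 6 genes passed 1.5-fold. Of these, MCM9, GART, IMPDH2 and CDC25A were lower, and POLD4 and E2F7 were higher. Among all tested genes, 38.7% had an interval wholly below 0 and 29.4% wholly above. At least 1.5-fold lower were 9.06% of all tested genes, and at least 1.5-fold higher were 12.1%. The difference between the 85 other replication genes and the 40 was not tested.

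Enzymes of nucleotide synthesis outside the 40 had the lowest median of these lists that had more than 2 tested genes. The list of MCM relatives outside the ring, with 2 tested genes, had a median of -0.47. Across 20 genes the median was -0.36 on the log2 scale, with 14 intervals wholly below 0 and 3 wholly above. The shares of all tested genes were 38.7% and 29.4%. These were abundant genes, with a median level of 168 CPM in the SMC1A library and 196 CPM in the control library. In the top quintile by level, 64.8% of all genes had an interval wholly below 0. With the trend by level removed the median of the list was -0.20. GART, a purine synthesis enzyme, was at 335 CPM in the SMC1A library and 531 CPM in the control library (-0.66, -0.71 to -0.62). IMPDH2, which commits purines to guanine nucleotides, was at 167 and 265 CPM (-0.66, -0.73 to -0.60). At the other end stood the nucleoside transporter gene SLC29A1 (0.23, interval 0.16 to 0.31) and the ribonucleotide reductase gene RRM2B (0.17, 0.02 to 0.32), known in human cells as a p53 target. TK1, the thymidine kinase of nucleotide salvage, named after its value was seen, was at 0.05 (-0.05 to 0.14).

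Genes that fire origins or drive entry into S phase had a median log2 ratio of -0.23 over 14, with 9 intervals wholly below 0 and 2 wholly above. The shares of all tested genes were 38.7% and 29.4%. CDC25A, a phosphatase that activates CDK2, was at 85.5 CPM in the SMC1A library and 128 CPM in the control library (-0.59, -0.68 to -0.49). DBF4, the activator of the kinase CDC7, was at -0.35 (-0.44 to -0.26), and CDC7 itself at 0.13 (0.02 to 0.24). MTBP, a partner of the firing factor TICRR, was at 0.23 (0.02 to 0.45). Remaining subunits and the single-strand binding protein RPA had a median of -0.16 over 8, with RPA2 at -0.34 and RPA3 at 0.15.

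Fork protection genes (median log2 ratio -0.10 over 9) ran from TIPIN at -0.46 and WDHD1 at -0.31 to CLSPN at 0.09 and CHTF8 at 0.16. Okazaki fragment and topoisomerase genes (median -0.08 over 9) ran from RNASEH2B at -0.42 and FEN1, the flap nuclease, at -0.34 to RNASEH2A at 0.14 and RNASEH2C at 0.20. Genes of chromatin assembly behind the fork had a median of -0.21 over 10. In that list SLBP, which binds histone mRNA, was at -0.50 and CHAF1A at -0.41, while the histone chaperone genes ASF1B and ASF1A were at 0.28 (0.18 to 0.39) and 0.46 (0.35 to 0.57).

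The E2F and RB family, which holds activators and repressors of this gene program, lay on both sides of 0. Its median log2 ratio was -0.09 over 13 genes, with 7 intervals wholly below 0 and 3 wholly above, against 38.7% and 29.4% of all tested genes. The activator E2F1 was at 23.2 CPM in the SMC1A library and 31.4 CPM in the control library (-0.43, -0.62 to -0.25), which was named after its value was seen. E2F4 was at 92.1 and 138 CPM (-0.58, -0.68 to -0.49), and the E2F partner TFDP1 at 123 and 175 CPM (-0.50, -0.58 to -0.42). Also below 0 were the pocket protein gene RBL1 at -0.26 (-0.41 to -0.12), E2F5 at -0.21 (-0.40 to -0.02) and TFDP2 at -0.19 (-0.31 to -0.08). Nearer to 0 were E2F2 at -0.09, E2F3 at -0.09, E2F8 at -0.05 and E2F6 at -0.02. RBL1 and the genes after it were named after their values were seen. The intervals of E2F2, E2F8 and E2F6 held 0. The 3 genes with ratios above 0 were E2F7, RBL2 and RB1. E2F7, an atypical repressor, had 514 counts (29.1 CPM) in the SMC1A library and 265 (15.1 CPM) in the control library (0.95, 0.73 to 1.17), the pocket protein gene RBL2 was at 60.7 and 47.1 CPM (0.37, 0.23 to 0.50), and RB1 was at 0.23 (0.10 to 0.37).

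**Figure D4:**
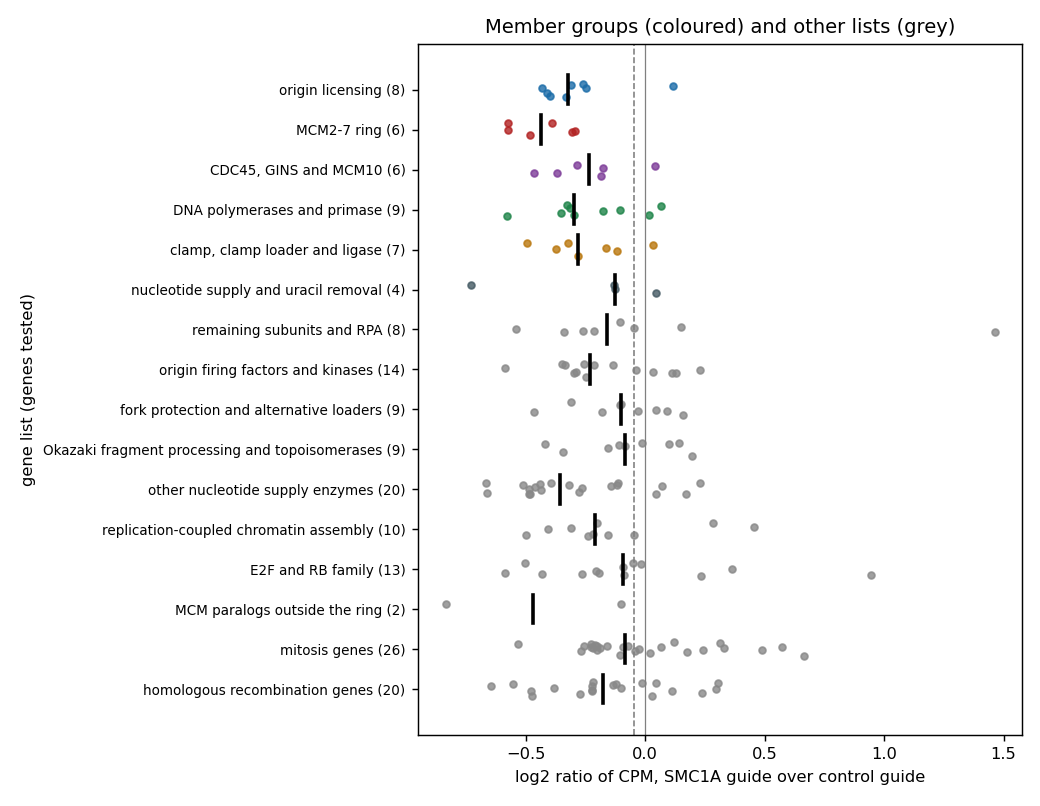
Log2 ratio of CPM (SMC1A guide over control guide) of each tested gene in the 6 groups of the 40 replication genes (coloured) and in other lists (grey), with a bar at each list's median and a dashed line at the median of all tested genes. The MCM2-7 median is -0.44, the mitosis median -0.08, and POLD4 is the far point at 1.46.

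Mitosis and homologous recombination genes, which peak in later or overlapping parts of the cell cycle, give a comparison within the same libraries. Of all tested genes, 38.7% had an interval wholly below 0 and 29.4% wholly above. The 26 mitosis genes had a median log2 ratio of -0.08, with 13 intervals wholly below 0 and 7 wholly above. They ran from BUB1 at -0.53 and BUB3 at -0.27 to KIF11 at 0.57 and CENPE at 0.67. The 20 recombination genes had a median of -0.18, with 10 intervals wholly below 0 and 4 wholly above, from XRCC3 at -0.65 and BLM at -0.55 to NBN at 0.30 and RAD51D at 0.31. With the trend by level removed, the medians were -0.14 for the 40 replication genes, 0.06 for mitosis genes and -0.08 for recombination genes. These differences between lists have no test.

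**Figure D5:**
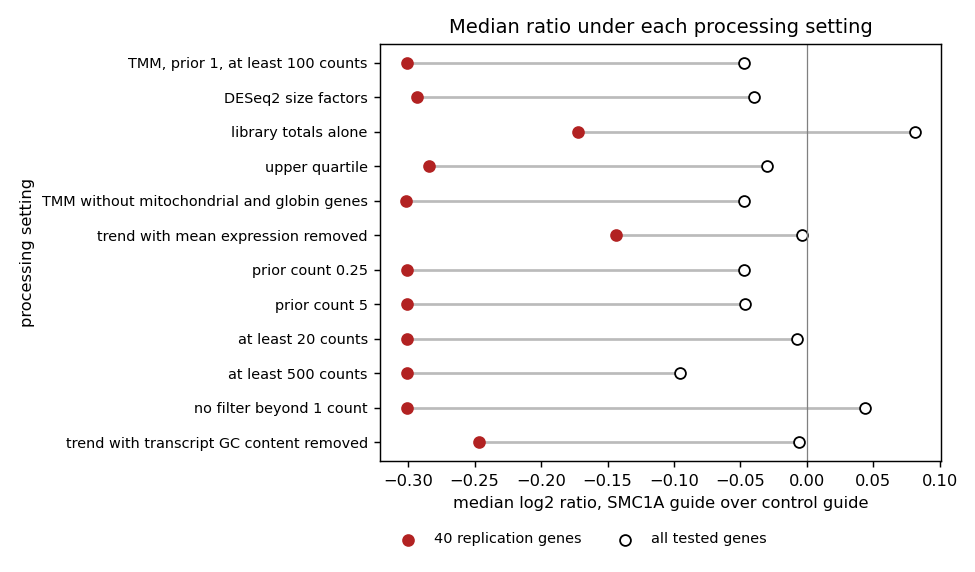
Median log2 ratio (SMC1A guide over control guide) of the 40 replication genes (filled) and of all tested genes (open) under each processing setting. The filled point lies to the left of the open one in each row, with a difference of -0.14 once the trend by level is removed and of -0.25 with TMM scaling.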

How the data were processed

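Poly(A) RNA was sequenced as paired reads of 100 bases in 1 library per guide. The authors deposited estimated counts per gene, whole numbers not scaled between libraries, in a table named for Salmon. The submitters' processing notes name build hg38 (GRCh38), DESeq2 1.42.1, Salmon 1.10.1 and STAR 2.7.10a. The sources used here do not give their roles, the annotation or the strand setting, while the library kit keeps strand per the labels' protocols. Salmon divides reads that match several transcripts, which affects overlapping genes.

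From these counts, TMM factors (edgeR 4.0.16, R 4.3.3) gave CPM and log2 ratios with a prior count of 1. Ratios carry exact (Clopper-Pearson) 95% intervals that cover counting error only, since reads counted without molecular identifiers can repeat a molecule and cultures may vary. The 2 reporter entries were left out of the tests. Python 3.11.15, scipy 1.17.1 and statsmodels 0.14.6 (lowess, span 0.3) did the rest. The ratio, interval and trend steps were tested on simulated data. Positions, lengths and overlaps came from GENCODE 29 (GRCh38), with 1 principal transcript a gene. Symbols were matched for all 62700 gene identifiers.

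The 40 genes and all lists were chosen with earlier results of these data known. In each other list the 2 highest and 2 lowest genes and any past 1.5-fold were named. Some further genes were named as well. Alternatives were other scalings, prior counts, filters and removal of trends.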

Additional observations from a re-analysis of the deposited data

How the results depend on the processing

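With library totals as the only scaling, the all-gene median moved by 0.13 (log2), and the medians were -0.17 for the 40 replication genes, -0.19 for licensing, -0.31 for MCM2-7, -0.10 for CDC45, GINS and MCM10, -0.17 for polymerases, -0.15 for the clamp group, 0.0016 for nucleotide supply and -0.052 for other replication genes. Relative to all tested genes the 40 were at -0.25 with TMM and with totals. PRIM2, RFC2 and RRM1 then had ratios above 0. With the trend by mean level removed, the medians were -0.14 for the 40, -0.19 for licensing, -0.21 for MCM2-7, -0.10 for polymerases, -0.16 for the clamp group, 0.076 for nucleotide supply and -0.066 for other replication genes, 2 of the 40, UNG and POLE2, were at least 1.5-fold lower, and RFC2, RRM1 and RRM2 were above 0. With mitochondrial and globin genes left out of the total, the 40 genes took 0.637% of the SMC1A library and 0.717% of the control library. Under prior counts of 0.25 and 5, filters of 20, 500 or 1 count, DESeq2 size factors, upper quartile scaling, and TMM with globin and mitochondrial genes left out, none of the 40 ratios left its main interval and none turned sign. With the trend by transcript GC content removed, chosen after seeing the data, 9 left it, the median was -0.25, and 30 intervals lay wholly below 0 and 3 wholly above. No paired analysis was possible because each guide had 1 library. Depth limits the genes with few counts most, and POLE2 had the widest interval.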
